A study of Mus musculus with 13 samples.

Results

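The genes described here encode the machinery that licenses DNA for replication: the helicase subunits Mcm2, Mcm3, Mcm4, Mcm5, Mcm6 and Mcm7, the loading factors Cdc6 and Cdt1, the loading inhibitor Gmnn and the firing factor Mcm10. They were taken as a named list of 10 genes out of 20689 gene bodies in the deposited table, by Entrez gene identifier, and all 10 were found. Each also had a CpG island holding its transcription start site (TSS), and 9 of them had Enh or IS elements, as the file names these region classes, over the gene body or within 5 kb upstream, 25 elements in all. Chromatin immunoprecipitation and sequencing (ChIP-seq) measured KAT7 (HBO1), a lysine acetyltransferase, and its product, histone H3 acetylated at lysine 14 (H3K14ac), in mouse neural stem and progenitor cells grown as neurospheres. The cells came from E14.5 embryonic cortex and ganglionic eminences and were used at passage 5, culture day 3.

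The labels name 13 libraries. Of these, 3 H3K14ac libraries and 1 KAT7 library came from Kat7-deleted cells (Kat7lox/loxNesCreT/+), 4 H3K14ac libraries and 3 KAT7 libraries from Kat7-intact cells (Kat7+/+NesCreT/+), and 2 were IgG controls. Both genotypes carried the NesCre transgene, from which Cre recombinase was expressed. The values used here are 1 merged KAT7 column and 1 merged H3K14ac column with read totals of 134111848 and 141734087. The labels name separate animals for the libraries of one antibody and genotype, but the libraries and genotypes behind each merged column are unknown. Genotypes were therefore not compared, IgG was not subtracted, and there are no replicates. Every interval below is a 95% interval that covers counting error alone. Of 10 neural stem and progenitor markers, 6 (Nes, Sox2, Vim, Fabp7, Slc1a3 and Olig2) carried the file's Top expression mark. Of the markers of young neurons (5), microglia (5), endothelium (4) and mesenchyme (3), 0 did.

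In eukaryotic cells the MCM subunits form a ring-shaped helicase that is loaded onto DNA at origins bound by the recognition complex in G1 phase. CDC6 and CDT1 take part in the loading with that complex. Geminin (the Gmnn product) binds CDT1 and blocks a further round, and MCM10 takes part in activating the loaded helicase. In human cells KAT7 is known to bind ORC1, MCM2 and CDT1. The values here describe chromatin at the genes that encode these proteins, not at replication origins. Of the 10 genes, 5 (Mcm3, Mcm4, Mcm5, Mcm6 and Mcm7) were in the file's Top expression class, which holds 1034 genes or 5.00% of the table. The other 5 were in its middle class, named Other.

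The promoters of Mcm2 and Mcm3 are shown because their CpG islands had the highest and the lowest ratio of KAT7 to H3K14ac of the group. Those of Mcm5 and Mcm6 are shown because 1 of the 2 E2F matches of Mcm5 and all 3 of Mcm6 lie in short Enh elements ahead of the file's TSS, described further on. The sequences are RefSeq's (GRCm38.p6), run 5′ to 3′ on the strand of the gene, and end before the first start site that RefSeq or the file gives. Capitals mark matches on either strand to the E2F letters (TTTCCCGC, TTTCGCGC, TTTGCCGC or TTTGGCGC) and to the CCAAT box.
Mcm2, chr6:88898781-88899030, minus strand: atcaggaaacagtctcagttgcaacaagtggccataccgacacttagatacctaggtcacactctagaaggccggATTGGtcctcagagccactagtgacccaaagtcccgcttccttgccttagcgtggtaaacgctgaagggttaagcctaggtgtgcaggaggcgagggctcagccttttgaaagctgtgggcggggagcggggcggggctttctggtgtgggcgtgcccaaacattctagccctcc
Mcm3, chr1:20820313-20820562, minus strand: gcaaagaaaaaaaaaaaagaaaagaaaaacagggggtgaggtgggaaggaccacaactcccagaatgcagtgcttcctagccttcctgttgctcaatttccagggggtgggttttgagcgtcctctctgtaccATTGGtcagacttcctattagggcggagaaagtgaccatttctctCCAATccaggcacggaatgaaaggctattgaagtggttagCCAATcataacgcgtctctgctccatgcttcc
Mcm5, chr8:75109259-75109467, plus strand: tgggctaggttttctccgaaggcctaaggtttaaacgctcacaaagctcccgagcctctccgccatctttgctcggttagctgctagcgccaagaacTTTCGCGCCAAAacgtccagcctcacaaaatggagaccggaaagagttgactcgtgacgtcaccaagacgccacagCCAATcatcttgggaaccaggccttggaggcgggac
Mcm6, chr1:128359706-128359955, minus strand: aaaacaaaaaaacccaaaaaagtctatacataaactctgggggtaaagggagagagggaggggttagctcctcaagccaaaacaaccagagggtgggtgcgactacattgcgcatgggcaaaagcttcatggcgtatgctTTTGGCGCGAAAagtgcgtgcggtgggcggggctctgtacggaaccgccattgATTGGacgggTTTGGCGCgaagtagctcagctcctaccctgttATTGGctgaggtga

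RefSeq promoter windows, from 250 bases before to 50 bases after a start, were found for 8 of the 10 genes, and Mcm4 and Gmnn had none in the table. An E2F match was present in the windows of 6 of these 8 genes (Mcm3, Mcm5, Mcm6, Mcm7, Cdc6 and Cdt1), against 2.26% of 32851 promoter windows and 4.53% of the 9929 windows of genes with a CpG island at the TSS. The 2 matches of Mcm5 lie on opposite strands and share bases, as do 2 of the 3 of Mcm6. The matches of Mcm3 and Cdt1 lie after the RefSeq start and are not printed. A CCAAT box was present in 6 of 8 (Mcm2, Mcm3, Mcm5, Mcm6, Mcm7 and Mcm10), against 36.5% of the windows of island genes, and the E-box CACGTG in 0 of 8, against 10.9%. The GC box GGGCGG was present in 6 of 8, against 71.2%. These counts are of genes, while the shares are of windows: the 8 genes have 9 windows, since Mcm7 has 2. Only the first Mcm7 window holds an E2F match, and each holds a CCAAT box and a GC box. The median G+C content of the windows was 57.3%, against 63.7% in windows of island genes.

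At the CpG islands over the TSS, both antibodies varied between these genes, and H3K14ac at Mcm3 stood apart. KAT7 ran from 0.298 RPKM (reads per kilobase of region, scaled to the column's read total) at Cdc6 to 0.629 at Mcm2, and the counting intervals of these extremes overlapped. H3K14ac ran from 0.255 at Mcm2 to 1.35 at Mcm3, and its interval at Mcm3 lay above those of the other 9 islands. Without Mcm3 the highest H3K14ac was 0.831, at Cdt1. In rank among all islands, KAT7 ran from percentile 6.56 to 82.5 and H3K14ac from percentile 10.5 to 99.8. The median of the 10 islands was 0.492 for KAT7 and 0.488 for H3K14ac, beside medians of 0.487 and 0.458 over 8899 TSS islands. Over 753 islands of Top class genes the medians were higher, 0.541 and 0.547. An island is short and its value rests on 9 to 83 reads of an antibody, so only large differences exceed counting error.

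**Figure D1:**
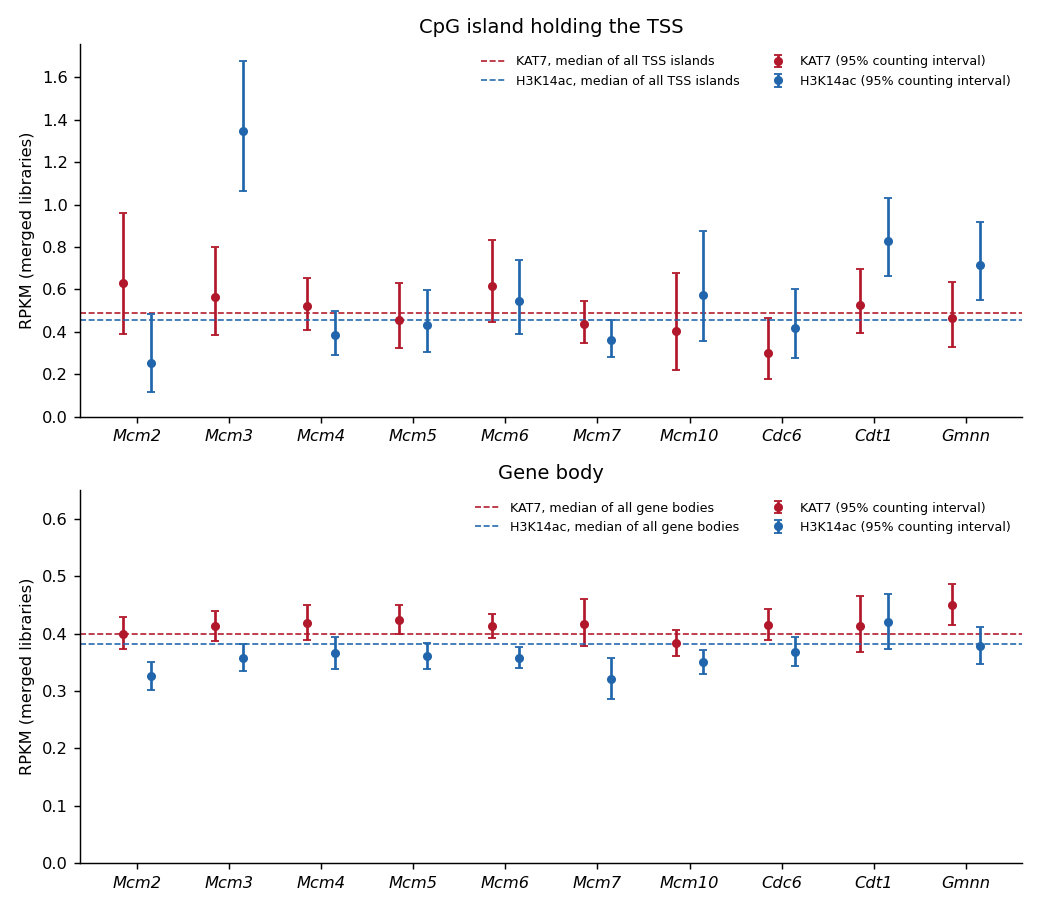
KAT7 (red) and H3K14ac (blue) RPKM of the merged libraries at the TSS CpG island (top) and over the gene body (bottom) of each gene; points are values, bars are 95% counting intervals and dashed lines are medians of all islands or gene bodies. At islands H3K14ac spreads from 0.255 at Mcm2 to 1.35 at Mcm3 around KAT7 values between 0.298 and 0.629; over gene bodies H3K14ac is under its dashed line in 9 of 10 genes.

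Mcm3 (gene 17215, chromosome 1, 20803014 to 20820213), a helicase subunit, had the highest H3K14ac of the group. Its island (20819888 to 20820297) held 31 KAT7 reads and 78 H3K14ac reads, which is 0.565 RPKM (0.384 to 0.802) for KAT7 and 1.35 (1.06 to 1.68) for H3K14ac. The H3K14ac level ranked at percentile 99.8 of all TSS islands and the KAT7 level at percentile 70.2. The KAT7 to H3K14ac ratio was 0.420 (0.268 to 0.644). Directly upstream the order was the opposite. An Enh element of 151 bases (20820300 to 20820450), which begins beside the island's upstream end and takes up bases 113 to 250 of the printed promoter, held 13 KAT7 reads and 1 H3K14ac read, a ratio of 13.7 with a counting lower bound of 2.06.

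Mcm2 (gene 17216, chromosome 6, 88883474 to 88898780), whose product has a histone-binding tail, had the opposite order at its island (88898586 to 88898835). The island held 21 KAT7 reads and 9 H3K14ac reads, 0.629 RPKM (0.389 to 0.961) against 0.255 (0.117 to 0.484). The ratio of 2.47 (1.08 to 6.12) was the highest of the 10 islands and ranked at percentile 96.9 of all. The longer Enh region around it (88898185 to 88899310), with 76 KAT7 and 67 H3K14ac reads, had a ratio of 1.199 (0.852 to 1.69), whose interval includes 1. The last 55 bases of the printed Mcm2 promoter lie inside the island.

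The remaining helicase subunits had islands with KAT7 values slightly above H3K14ac, none beyond counting error. Mcm4 (gene 17217, chromosome 16, 15623897 to 15637400) had 0.520 RPKM for KAT7 and 0.384 for H3K14ac, a ratio of 1.35 (0.944 to 1.95). Its island (15637061 to 15638107) also holds the TSS of Prkdc, a DNA repair kinase gene, 466 bases away. Mcm7 (gene 17220, chromosome 5, 138164589 to 138171862) had 0.438 and 0.361, a ratio of 1.21 (0.864 to 1.71), at an island (138170878 to 138172188) that it shares with Ap4m1, whose TSS is 159 bases away. At these shared islands the reads of both promoters cannot be told apart. Mcm6 (gene 17219, chromosome 1, 128331591 to 128359656) had 0.618 and 0.544, a ratio of 1.14 (0.721 to 1.79), at its island (128359337 to 128359856). Mcm5 (gene 17218, chromosome 8, 75109528 to 75128439) had 37 reads of each antibody at its island (75109308 to 75109911), which is 0.458 for KAT7 and 0.433 for H3K14ac.

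The loading factors, the inhibitor and Mcm10 all had less KAT7 than H3K14ac at their islands, and at Cdt1 and Gmnn the difference exceeded counting error. Cdt1 (gene 67177, chromosome 8, 122568015 to 122573130), which brings the helicase to origins, had 50 KAT7 and 83 H3K14ac reads at its island (122567678 to 122568383). The levels were 0.529 RPKM (0.393 to 0.697) and 0.831 (0.662 to 1.03), and the ratio was 0.637 (0.439 to 0.915). Gmnn (gene 57441, chromosome 13, 24751845 to 24761937), the inhibitor of CDT1, had 38 and 62 reads at its island (24761559 to 24762170), with levels of 0.464 (0.328 to 0.637) and 0.716 (0.549 to 0.918) and a ratio of 0.648 (0.421 to 0.986). H3K14ac at these islands ranked at percentile 95.1 for Cdt1 and 89.3 for Gmnn.

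Cdc6 (gene 23834, chromosome 11, 98907889 to 98923942), the ATPase of the loading reaction, had the lowest island KAT7, 0.298 RPKM (0.180 to 0.466), at percentile 6.56. H3K14ac at the same island (98907613 to 98908088) was 0.416 (0.276 to 0.601), and the ratio of 0.717 (0.378 to 1.33) could not be told from 1. Mcm10 (gene 70024, chromosome 2, 4990724 to 5012791) had 14 KAT7 and 21 H3K14ac reads at an island of 259 bases (5012546 to 5012804), and its ratio of 0.705 (0.331 to 1.45) could not be told from 1 either. Summed over the 4 genes that are not helicase subunits, island reads gave a ratio of 0.659 (0.521 to 0.831). Over the 6 helicase subunits they gave 1.03 (0.875 to 1.22). These roles were grouped after the values had been seen, and the helicase sum includes Mcm3, whose ratio was the lowest of all 10.

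With a fold of 1.5 as the threshold, KAT7 exceeded H3K14ac at 1 of 10 islands (Mcm2), against 18.8% of all TSS islands, and was lower at 3 of 10 (Mcm3, Cdt1 and Gmnn), against 9.32% of all. By counting interval the same genes stood out: the interval lay above 1 at Mcm2 alone and below 1 at Mcm3, Cdt1 and Gmnn, where 14.7% and 8.17% of all TSS islands had such intervals. KAT7 was above the 75th percentile of TSS islands at 2 genes (Mcm2 and Mcm6), and H3K14ac at 3 (Mcm3, Cdt1 and Gmnn), where 25% of all islands are by definition. The median log2 ratio of the 10 islands was -0.20, beside 0.08 over all TSS islands. Its sign is not firm, since it became 0.08 when any one of Mcm3, Cdc6, Cdt1, Gmnn or Mcm10 was left out and -0.48 when any one of the others was. A ratio of 1 means equal shares of each column's reads, not equal occupancy, since nothing calibrates one antibody against the other.

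**Figure D2:**
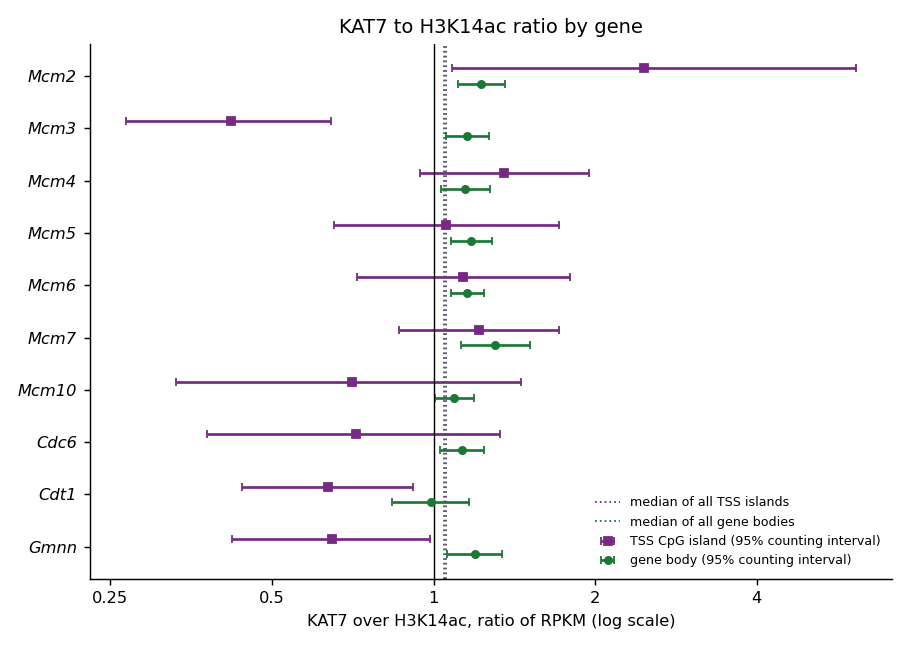
Ratio of KAT7 to H3K14ac RPKM on a log scale at the TSS CpG island (purple squares) and over the gene body (green circles) of each gene, with 95% counting intervals; dotted lines are the medians of all islands and of all gene bodies, and the solid line is 1. Island ratios run from 0.420 at Mcm3 to 2.47 at Mcm2 and differ between genes, while gene body ratios lie between 0.987 and 1.30.

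A ratio of the island to the gene's own body compares regions within one column and needs no common scale. For H3K14ac it was 3.77 (2.95 to 4.75) at Mcm3, percentile 99.8 of 7918 genes, 1.98 (1.53 to 2.53) at Cdt1 and 1.90 (1.43 to 2.47) at Gmnn, beside a median of 1.21. At Mcm10 it was 1.64 (1.01 to 2.52) and at Mcm6 1.52 (1.08 to 2.08), with intervals that include this median. At the other 5 genes the interval included 1. For KAT7 the interval lay above 1 at Mcm6 alone, with 1.49 (1.08 to 2.02), and it includes the median over all genes of 1.18. The share of all genes with an interval above 1 was not counted, so these intervals do not set Mcm6 or Mcm10 apart from other genes. Cdc6 had the lowest value, 0.718 (0.430 to 1.13). Islands and gene bodies share some bases, so these ratios compare partly the same reads.

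Over gene bodies the members' median lay a little above that of all genes for KAT7 and below it for H3K14ac. The medians of the 10 genes were 0.415 RPKM for KAT7 and 0.359 for H3K14ac, beside 0.399 and 0.381 over 15774 gene bodies. KAT7 was above the overall median at 9 of 10 genes, the exception being Mcm10, and H3K14ac was below it at 9 of 10, the exception being Cdt1. The counting interval cleared that median only at Gmnn for KAT7, and at Mcm2, Mcm6, Mcm7 and Mcm10 for H3K14ac. How many of all gene bodies have such intervals was not counted, so it is not known whether this is more than usual. No IgG value is available beside them, so the part of nonspecific pull-down in these levels was not tested.

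KAT7 over gene bodies was highest at Gmnn, with 609 reads and 0.450 RPKM (0.415 to 0.487), percentile 88.7, against 0.378 (0.346 to 0.411) for H3K14ac. It was lowest at Mcm10, with 1133 reads and 0.383 (0.361 to 0.406), an interval that does not meet that of Gmnn. The 8 others lay between 0.400 and 0.423, with overlapping intervals. H3K14ac was highest at Cdt1, the shortest gene of the list with 5116 bases, at 0.419 (0.374 to 0.469), where KAT7 was 0.414 (0.367 to 0.465). H3K14ac was lowest at Mcm7 and Mcm2, with 0.320 (0.287 to 0.357) and 0.326 (0.302 to 0.351), at percentiles 6.88 and 8.70, where KAT7 was 0.417 (0.378 to 0.460) and 0.400 (0.373 to 0.428). The H3K14ac intervals at Mcm2, Mcm7 and Mcm10 lay below that of Cdt1. The Mcm7 body contains the microRNA genes Mir25, Mir93 and Mir106b, which are listed with 0 reads of either antibody. Whether reads over those bases were left out of the Mcm7 values too was not tested.

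KAT7 exceeded H3K14ac beyond counting error over 9 of the 10 gene bodies, against 34.2% of all gene bodies, and Cdt1, with a ratio of 0.987 (0.837 to 1.16), was the exception. The ratio was 1.30 (1.12 to 1.51) at Mcm7 and 1.23 (1.11 to 1.36) at Mcm2, the only members above a fold of 1.2, and 12.3% of all gene bodies exceed it. The Mcm7 body shares bases with its microRNA genes, so the rule for the gene bodies compared with would leave it out. Gmnn had 1.19 (1.06 to 1.34), Mcm5 1.18 (1.08 to 1.28), Mcm6 1.16 (1.08 to 1.24), Mcm3 1.16 (1.05 to 1.27), Mcm4 1.15 (1.03 to 1.27), Cdc6 1.13 (1.03 to 1.24) and Mcm10 1.09 (1.01 to 1.19). The intervals of Mcm4, Cdc6, Mcm10 and Cdt1 include 1.046, the median ratio of all gene bodies. In the other direction 0 of 10 were past a fold of 1.2, against 3.31% of all. KAT7 was above the 75th percentile at 1 gene (Gmnn) and H3K14ac at 1 (Cdt1), where 25% of all gene bodies are by definition.

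The median ratio was 1.16 for the 10 genes, 1.13 for 790 gene bodies of the Top class and 1.05 for all, and 25.3% of the Top class exceeded 1.2. The members' medians of 0.415 for KAT7 and 0.359 for H3K14ac were under those of the Top class, 0.436 and 0.389, although Gmnn was above the first and Cdt1 above the second. Over gene bodies expression class and ratio moved together, while at islands the median ratio was 0.991 for the Top class and 1.06 for all. The part of expression in the members' ratio was not tested.

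**Figure D3:**
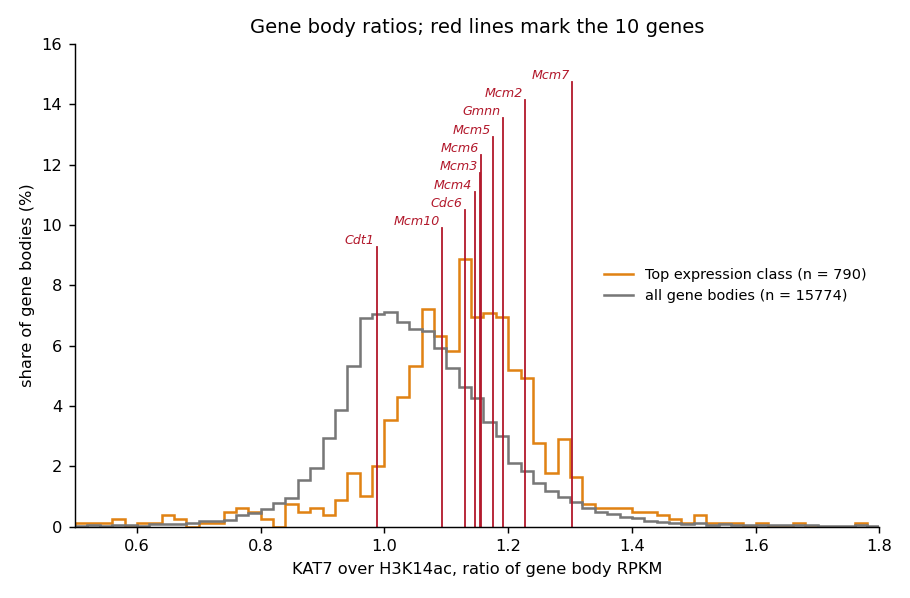
Distribution of the KAT7 to H3K14ac ratio over the gene bodies of the Top expression class (orange) and of all genes (grey), as the share of gene bodies per bin; red lines mark the 10 genes, and 9 Top class and 78 gene bodies in all lie outside the axis. The lines of 9 genes stand to the right of the overall median of 1.05, inside the spread of the Top class, and Cdt1 stands at 0.987.

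In short Enh and IS elements, H3K14ac was lower upstream of the file's TSS than downstream. Of the short upstream elements, 3 (at Mcm3, Mcm5 and Mcm6) hold the RefSeq start of their gene, and sums without them were not taken. Of the 25 elements, 17 were at most 250 bases long. The 7 short elements upstream had 83 KAT7 and 47 H3K14ac reads, which is 0.562 RPKM (0.447 to 0.696) for KAT7 and 0.301 (0.221 to 0.400) for H3K14ac, a ratio of 1.87 (1.29 to 2.73). The 8 short elements downstream had 0.863 (0.715 to 1.03) and 0.884 (0.739 to 1.05), a ratio of 0.976 (0.755 to 1.26). Over the genes of the whole table, by the same assignment, short upstream elements had 0.600 for KAT7 and 0.531 for H3K14ac and short downstream elements 0.630 and 0.606. Levels are compared here only within a size class. Position also goes with region class, since 5 of the 7 short upstream elements are Enh and 7 of the 8 downstream are IS. In a split by class made after the values were seen, KAT7 was 0.477 (0.352 to 0.633) and H3K14ac 0.254 (0.167 to 0.370) over the 5 Enh elements upstream. Their ratio of 1.88 (1.15 to 3.13) has an interval that holds the 1.46 of the short upstream Enh elements of all genes. Among IS elements H3K14ac was 0.401 (0.245 to 0.619) in the 2 upstream and 0.899 (0.741 to 1.08) in the 7 downstream, while KAT7 was 0.741 (0.516 to 1.03) and 0.866 (0.707 to 1.05). The IS ratios were 1.85 (1.04 to 3.38) upstream and 0.963 (0.730 to 1.27) downstream, beside 1.07 and 1.02 over all genes.

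Limited to the 5 short elements within 250 bases upstream (of Mcm3, Mcm5, Mcm6, Cdc6 and Cdt1), a limit set after the values were seen, KAT7 was 0.486 (0.366 to 0.633) and H3K14ac 0.184 (0.115 to 0.279). The ratio was 2.64 (1.59 to 4.55), beside 1.38 (1.36 to 1.41) over 2607 such elements of all genes, where KAT7 was 0.510 and H3K14ac 0.369. The H3K14ac interval of these genes lay below the level of all genes, and the KAT7 interval included it. Upstream is meant by the file's TSS: 3 of the 5 elements (at Mcm3, Mcm5 and Mcm6) hold the RefSeq start of their gene. In that order they had 13, 7 and 13 KAT7 reads and 1, 4 and 3 H3K14ac reads. Those at Cdc6 and Cdt1 had 3 and 19 KAT7 reads and 4 and 10 H3K14ac reads. The low H3K14ac is therefore not shown for elements ahead of the RefSeq start. How many of the 2607 elements hold a RefSeq start was not counted.

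Of single elements, 2 of 25 had a ratio interval above 1, against 7.87% of the elements of all genes, and 2 of 25 had one below 1, against 4.38%. Those above were the Mcm3 element described above and an element of 151 bases centred 99 bases upstream of the Mcm6 TSS (128359680 to 128359830), with 13 KAT7 and 3 H3K14ac reads and a ratio of 4.58 with a lower bound of 1.26. All 3 E2F matches printed for Mcm6 fall within that element, and also within the Mcm6 CpG island, whose ratio was 1.14. The printed bases of the Mcm3 element hold 0 E2F matches. Those below were at Gmnn and Cdt1. The IS element of 118 bases over the Gmnn TSS (24761824 to 24761941) had 10 KAT7 and 28 H3K14ac reads, 0.637 (0.306 to 1.17) against 1.69 (1.12 to 2.44). The Enh region of 1486 bases over the Cdt1 TSS (122566964 to 122568449) had 105 and 153 reads, 0.527 (0.431 to 0.638) against 0.727 (0.616 to 0.852).

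Cdt1 has 3 short IS elements, and the ratio interval of each includes 1. The element ending before the TSS (122567760 to 122568003) had 19 KAT7 and 10 H3K14ac reads, a ratio of 2.01 (0.888 to 4.83). Within the gene, the nearer one (122568389 to 122568522) had 17 and 31, a ratio of 0.580 (0.301 to 1.08), and the farther one (122570523 to 122570629) had 14 and 10, a ratio of 1.48 (0.611 to 3.72). Mcm5 had its highest values for both antibodies in an IS element of 122 bases downstream of the TSS (75109967 to 75110088), 1.36 (0.850 to 2.05) for KAT7 and 1.22 (0.758 to 1.87) for H3K14ac. Its Enh element ahead of the TSS (75109360 to 75109510) had 7 KAT7 and 4 H3K14ac reads. Elements of different classes can overlap and then share reads, and those of one gene are not replicates.

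**Figure D4:**
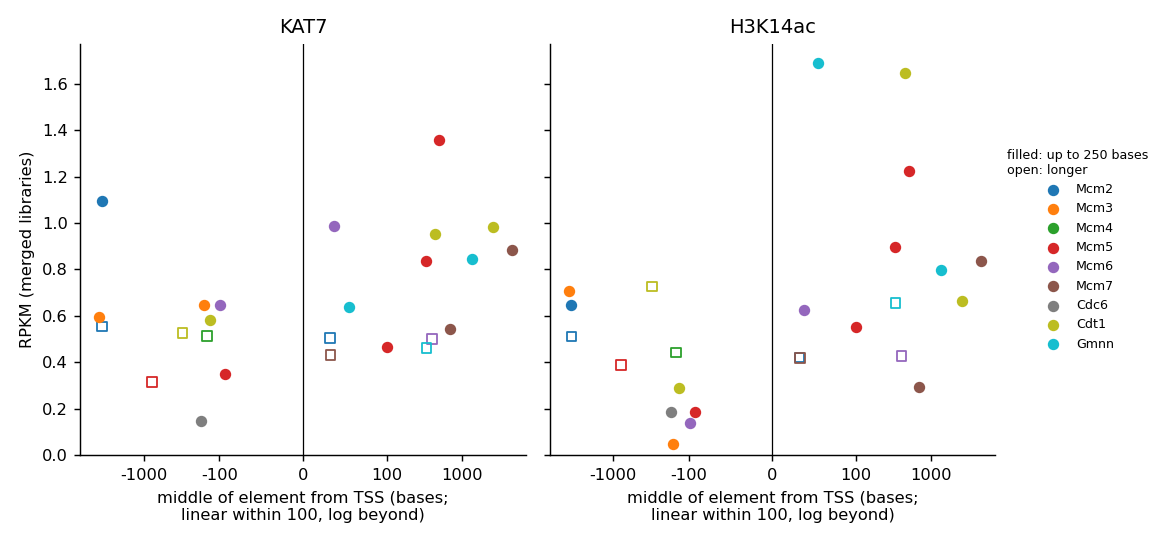
KAT7 (left) and H3K14ac (right) RPKM of the 25 Enh and IS elements by the distance of their middle from the TSS in bases (linear within 100 bases, log beyond); colours are genes, filled circles are elements of at most 250 bases and open squares longer ones. H3K14ac of the short elements within 250 bases upstream reaches at most 0.290, while values at and after the TSS reach 1.69; KAT7 upstream reaches 0.646 in the same elements.

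A further list held 52 other replication genes. Their groups are origin recognition, MCM relatives, origin firing, polymerases with the clamp and its loader, and CDT1 turnover with the geminin relative Gmnc. Over most of their gene bodies the KAT7 value was above that of H3K14ac. The same holds for most of the 15774 gene bodies compared, whose median ratio was 1.05. Of 40 with a gene body of their own on an autosome, 7 exceeded a ratio of 1.2 and 0 were past it in the other direction, beside the 12.3% and 3.31% of all gene bodies. The 7 were Pole2, Pola2, Donson, Gins3, Gins4, Mcm8 and Rfc5. H3K14ac was below the overall median at 31 of the 40 and KAT7 above it at 28, with a median ratio of 1.13. The highest ratios by lower bound were at the DNA polymerase subunit genes Pole2 (1.27, 1.18 to 1.37) and Pola2 (1.26, 1.16 to 1.36), and the lowest by upper bound at the primase subunit gene Prim2 (1.00, 0.977 to 1.03) and at Mcmdc2 (0.976, 0.914 to 1.04), a relative of the MCM genes with a role in meiosis.

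At the islands of the other replication genes (40 measured), 7 ratios were above 1.5 and 5 below it in the other direction, beside 18.8% and 9.32% of all islands, and the median was 1.07. Those above were Pole2, Orc3, Donson, Rpa1, Pold2, Topbp1 and Skp2, and those below Rfc2, Rfc1, Fen1, Rfc4 and Tipin. Pole2 had 0.757 RPKM for KAT7 and 0.304 for H3K14ac (2.49, 1.30 to 5.04), and Donson, a gene of helicase assembly at origins, 0.536 and 0.253 (2.11, 1.28 to 3.57). The lowest by upper bound were the clamp loader gene Rfc2, with 0.335 and 0.733 (0.457, 0.237 to 0.842), and the fork protection gene Tipin, with 0.566 and 0.879 (0.644, 0.421 to 0.974). Among the 5 measured islands of origin recognition genes, Orc3 was above 1.5, with 0.634 and 0.273 (2.33, 1.23 to 4.61). Ratios near that of Mcm3 and near that of Mcm2 both occurred among the other replication genes.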

How the data were processed

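ChIP-seq for KAT7 and H3K14ac was done on mouse neural stem and progenitor cells, and 1 deposited table covers the regions. Per the file headers, the authors give a read count and an RPKM value per region for 1 merged column of each antibody. The RPKM deposited by the authors equals the count over the region's end minus start and over 1 total per column, within a relative tolerance of 1e-06 in 100% of regions with a count. Per the submitters' processing notes, reads were handled on mm10 with featureCounts, deepTools, Picard, SAMtools and Bowtie2 among the tools. Their versions and roles, any correction before counting, the merged libraries and the meaning of SC, gc, Enh and IS: not given in the sources used here. Levels used that RPKM with exact Poisson 95% intervals, and ratios the counts with exact Clopper-Pearson 95% intervals (Python 3.11.15, scipy 1.17.1). Reads are not independent molecules. With merged columns no replicate test was possible, so no p-value is given. Background regions were autosomal, shared no bases within their class, had a mean of at least 0.1 RPKM and at most 5 RPKM in either column: 15774 gene bodies and 8899 TSS islands. Percentiles are ranks among these. Thresholds were a fold of 1.2 over gene bodies and 1.5 at islands. Symbols were matched by gene identifier in RefSeq GRCm38.p6 (96.7% of genes). The members and lists were chosen with earlier results of these data known; all members are named, and of the other replication genes, those past the fold were counted and the 2 highest and 2 lowest by interval bound named. The remaining ones past the fold are named after their values were seen. Interval coverage was tested only on simulated Poisson counts at the depth of gene bodies, and the intervals assume such counts. That test says nothing about spread beyond counting error, or about islands and elements with few reads. Alternatives are given at the end.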

Additional observations from a re-analysis of the deposited data

How the results depend on the processing

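No paired analysis was possible because the deposited columns are merged and carry no replicate, and for the same reason no library could be left out. Over gene bodies, the count of members above the fold (2) was 0 at a fold of 1.5, 9 by an interval that excludes 1 and 1 after division by the median ratio of all gene bodies, which also lowered the members' median log2 ratio to 0.14. Of all gene bodies, 34.2% had an interval above 1, and the shares at a fold of 1.5 or after that division were not counted. At islands a fold of 1.2 gave 3 members above and 5 below. The share of all islands past that fold was not counted, but the 25th and 75th percentiles of their ratios were 0.838 and 1.37. Members above the 75th percentile of KAT7 over gene bodies (1) were 3 within length bins, and 2 with lengths extended by 200 bases or with X and Y kept. At islands they were 1 in place of 2 within the expression class, within length bins and with extended lengths. The island median log2 ratio was -0.48 without Mcm2, Mcm4, Mcm5, Mcm6 or Mcm7 and 0.080 without any one of the other members. Extending lengths by 200 bases lowered element levels by construction: short elements upstream to 0.247 for KAT7 and 0.133 for H3K14ac, over the TSS to 0.363 and 0.445, downstream to 0.339 and 0.348, and long ones over the TSS to 0.422 and 0.452. Upstream elements within 250 bases alone had an H3K14ac level of 0.184, and the short upstream IS elements alone 0.741 for KAT7 and 0.401 for H3K14ac, both alternatives added after seeing the data. The other 63 alternative values stayed within counting error or within 1.5 times the count, some by construction, since a filter on the background leaves the members' own ratios as they are. Read depth limits single islands and elements, most of whose ratio intervals include 1.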

Other observations

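Of the 3 members on the plus strand, for which the file gives usable promoter and post-TES windows (2001 bases before the TSS and after the transcription end), Cdt1 alone had a ratio interval above 1, after its end, and the intervals of its windows overlap. After its end it had 115 KAT7 and 87 H3K14ac reads, 0.429 against 0.307 RPKM and a ratio of 1.397 (1.05 to 1.87), and in its promoter window 134 and 150 reads with a ratio of 0.944 (0.742 to 1.1998). Mcm5 and Cdc6 had ratios between 1.04 and 1.15 in these windows, with intervals that include 1. The medians of all plus-strand genes were 1.08 in the promoter and 1.07 after the end, and the interval of Cdt1 after its end includes the latter. The share of all such windows with an interval above 1 was not counted.

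Among 7868 genes, the 3 outside the replication and marker lists that were nearest to the members' median in log2 KAT7 and H3K14ac of island and gene body are Slc25a51, Bambi and Mtfr2, at Euclidean distances of 0.047, 0.047 and 0.049 over these 4 values.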
